A study of Mus musculus with 4 samples.

Results

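The genes described here are the mitochondrial ribosomal protein genes of the mouse, found as every symbol that starts with Mrpl or Mrps followed by a digit, pseudogenes left out. The rule used names only and no measured value. It found 76 of the 17008 genes with a read in any library, 47 named for the large subunit (Mrpl) and 29 for the small subunit (Mrps), and each of the 76 had reads in all 4 libraries.

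Mitochondria keep their own ribosome, which translates the few proteins encoded in mitochondrial DNA, all of them subunits of the respiratory chain and ATP synthase. Its RNAs come from mitochondrial DNA, but its proteins are encoded in the nucleus, made in the cytosol and imported. Some descend from bacterial ribosomal proteins and others were added in the mitochondrial lineage. Macrophages, like other cells, draw on oxidative phosphorylation to a degree that varies with tissue and activation state.

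The study set macrophages of mice with T cell acute lymphoblastic leukemia (T-ALL) against those of normal mice by RNA sequencing, asking how leukemia-associated macrophages differ from those at homeostasis. All mice were C57BL/6J. The leukemic mice received GFP+ leukemia cells at 6 to 8 weeks of age, with no irradiation, and survived 35 to 40 days. The same age of 6 to 8 weeks is listed for the normal groups. The normal bone marrow and normal spleen libraries stand for day 0, and the T-ALL bone marrow and T-ALL spleen libraries for day 21. The sources used here do not give the markers of the sort, the genotype of the leukemia cells, or the number, sex and pooling of the animals. Each group has 1 library, so nothing below has a replicate check: the spread between animals is unknown, and differences are between these libraries. Intervals are 95% and cover counting error only.

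The libraries held 9.81 M (normal bone marrow), 9.40 M (T-ALL bone marrow), 8.98 M (normal spleen) and 9.16 M (T-ALL spleen) uniquely mapped reads. All 15 macrophage markers looked for had reads in each library. Levels are in CPM, reads scaled to a library total of 1 M. Their summed level was 3806 CPM in normal bone marrow, 10033 in T-ALL bone marrow, 10152 in normal spleen and 5457 in T-ALL spleen. The median marker stood at 30.7, 285, 482 and 241 CPM in the same order. The highest single marker held 2572 CPM in normal bone marrow, 5494 in T-ALL bone marrow, 2415 in normal spleen and 1421 in T-ALL spleen. Neutrophil precursor markers summed to 37319 CPM in normal bone marrow and 19854 in T-ALL bone marrow, against 421 and 195 in the spleens. Both bone marrow libraries, though labelled macrophages, thus held more RNA of that kind than of macrophage markers. T cell and T-ALL markers were highest in T-ALL spleen, at 3714 CPM. Ddx3y, a Y-linked gene, had 0 reads in both normal libraries and 93.8 and 57.6 CPM in T-ALL bone marrow and T-ALL spleen. Xist, made from the inactive X, stood at 861 CPM in normal bone marrow, 849 in normal spleen, 416 in T-ALL spleen and 0.644 in T-ALL bone marrow. Sex, as these transcripts mark it, and leukemia cannot be told apart in this design. The T-ALL libraries also differ from each other in Xist, so sex and organ cannot be told apart between them.

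Shared sequence features and neighbours were looked for in all members with a promoter window and are given further below. Some promoters of these genes are shown first, as examples. They are RefSeq sequence of the GRCm38.p6 assembly, given 5′ to 3′ on the gene's strand, and capitals mark CCGGAAG, a core that ETS family factors such as GABP bind. The first 3 are the 250 bases before the transcription start of Mrps22 (chr9:98601680-98601929, minus strand), Mrpl12 (chr11:120484387-120484636, plus strand) and Mrpl51 (chr6:125191950-125192199, plus strand). Mrps22 and Mrpl12 had the highest spleen log2 folds, and Mrpl51 passed 1.5-fold in opposite directions in the organs. The last 2 lie between paired divergent starts: the 115 bases between Mrpl43 and Peo1, the mitochondrial DNA helicase now called Twnk (chr19:45006443-45006557, minus strand), and the 41 bases between Mrps11 and Mrpl46 (chr7:78783090-78783130, plus strand).
Mrps22: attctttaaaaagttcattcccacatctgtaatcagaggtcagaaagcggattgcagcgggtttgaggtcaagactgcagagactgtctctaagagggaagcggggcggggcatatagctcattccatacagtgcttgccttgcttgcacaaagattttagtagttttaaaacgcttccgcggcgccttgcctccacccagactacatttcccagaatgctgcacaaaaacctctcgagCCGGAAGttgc
Mrpl12: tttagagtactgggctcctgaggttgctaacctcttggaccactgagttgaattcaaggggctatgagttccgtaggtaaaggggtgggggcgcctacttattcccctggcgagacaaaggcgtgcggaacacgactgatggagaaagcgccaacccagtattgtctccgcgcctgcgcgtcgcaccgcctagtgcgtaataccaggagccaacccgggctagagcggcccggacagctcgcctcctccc
Mrpl51: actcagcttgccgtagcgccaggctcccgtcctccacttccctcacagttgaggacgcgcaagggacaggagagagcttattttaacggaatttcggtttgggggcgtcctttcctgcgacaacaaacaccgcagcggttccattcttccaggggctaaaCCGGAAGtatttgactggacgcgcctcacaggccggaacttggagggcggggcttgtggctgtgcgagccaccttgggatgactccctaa
Mrpl43 to Peo1: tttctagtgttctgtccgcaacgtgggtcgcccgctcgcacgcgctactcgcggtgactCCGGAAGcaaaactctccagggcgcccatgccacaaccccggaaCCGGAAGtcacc
Mrps11 to Mrpl46: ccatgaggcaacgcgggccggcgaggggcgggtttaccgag
The Mrps22 stretch holds the ETS core just before the start, the Mrpl51 stretch holds 1 copy farther out, and the Mrpl43 stretch holds 2. Neither the Mrpl12 stretch nor the Mrps11 stretch holds it.

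Together the 76 genes took 0.260% of the reads in normal bone marrow (interval 0.256% to 0.263%), 0.221% in T-ALL bone marrow (0.218% to 0.224%), 0.192% in normal spleen (0.190% to 0.195%) and 0.297% in T-ALL spleen (0.293% to 0.300%). T-ALL spleen was thus highest and normal spleen lowest, with both bone marrow libraries between them. The large subunit genes had median levels of 36.8, 30.9, 25.7 and 38.2 CPM in normal bone marrow, T-ALL bone marrow, normal spleen and T-ALL spleen. For the small subunit genes the medians were 30.1, 23.3, 24.5 and 31.9 CPM in the same order. The intervals of the ratio of subunits overlap among all 4 libraries: large subunit reads were 1.89 times small subunit reads in normal bone marrow (1.84 to 1.94), 1.94 times in T-ALL bone marrow (1.89 to 2.001), 1.86 times in normal spleen (1.81 to 1.92) and 1.94 times in T-ALL spleen (1.89 to 1.99). These are bulk libraries, in which fewer cells of a type and less RNA per cell cannot be told apart.

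**Figure D1:**
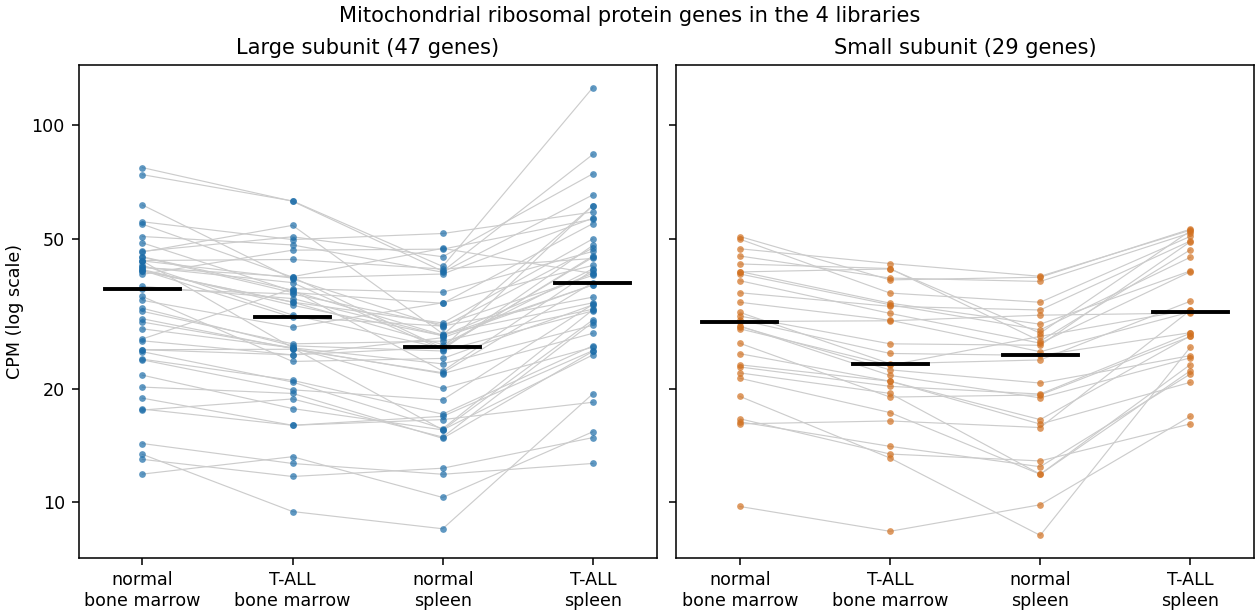
Level of each member in the 4 libraries, in CPM on a log axis, with the large subunit (47 genes) on the left and the small subunit (29 genes) on the right; grey lines join the points of 1 gene and black bars are medians. The medians are highest in T-ALL spleen, and most lines run upward from normal spleen to T-ALL spleen.

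Gene by gene, T-ALL spleen was the highest of the 4 libraries for 56 of the 76 (73.7%) and the lowest for 0, where it was the highest for 26.2% and the lowest for 28.6% of the 10312 genes with 10 CPM or more in any library. Normal spleen was the lowest for 57 members (75%) and for 31.9% of those genes. Both held for 40 members (52.6%), against 14.7% of those genes. Of the other 20 members, 18 were highest in normal bone marrow, 1 in T-ALL bone marrow (Mrpl33) and 1 in normal spleen (Mrpl43).

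Levels between genes are compared per length, as deposited RPKM, averaged over the 4 libraries. The order was nearly fixed: Spearman's rho between any pair of libraries was 0.92 to 0.97 over the 76 genes, which share libraries, lengths and mapping. Mrpl52 stood highest at 88.7 RPKM, Mrpl33, the counterpart of bacterial L33, had 83.6, and Mrpl12 had 79.3. In the small subunit the highest were Mrps21 at 63.8, Mrps16 at 54.5 and Mrps18c at 44.7 RPKM. Mrps25 was lowest at 3.40 RPKM, 26.1-fold under Mrpl52, with Mrpl17 at 5.20 and Mrpl1 at 5.80. Mrps25 has a listed length of 6076 bp and Mrpl52 of 412 bp, and 3533 bp of Mrps25 exon overlap Nr2c2 on the other strand in the GENCODE M21 annotation. In that annotation 25 of the 76 members overlap exons of another gene, 17 of them a protein-coding gene. The strand setting of the deposited counts is not given, so reads of such pairs cannot be told apart.

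In the spleen, mitochondrial ribosomal protein genes were higher in the T-ALL than in the normal library across both subunits. The log2 fold, on log2(CPM + 1), was above 0 for 75 of the 76 and below 0 for 1, where 46.0% of all 9774 genes with 10 CPM or more in a spleen library were above and 54.0% below 0. The median was 0.55 for the large subunit and 0.51 for the small subunit, beside -0.08 for all genes. Of the 76, 35 were at least 1.5-fold higher (22 large, 13 small) and 0 at least 1.5-fold lower, where 20.1% of all genes were higher and 23.9% lower by that size. At least 2-fold higher were 7 of the 76, a share near the 10.3% of all genes. By that size 0 were lower, against 11.0% of all genes. The counting interval of the ratio lay above 1 for 66 members and below 1 for 1, against 36.3% and 43.2% of all genes. With sums of reads in place of single genes, the ratio of T-ALL to normal spleen was 1.54 (1.51 to 1.58) for the large and 1.48 (1.43 to 1.53) for the small subunit.

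**Figure D2:**
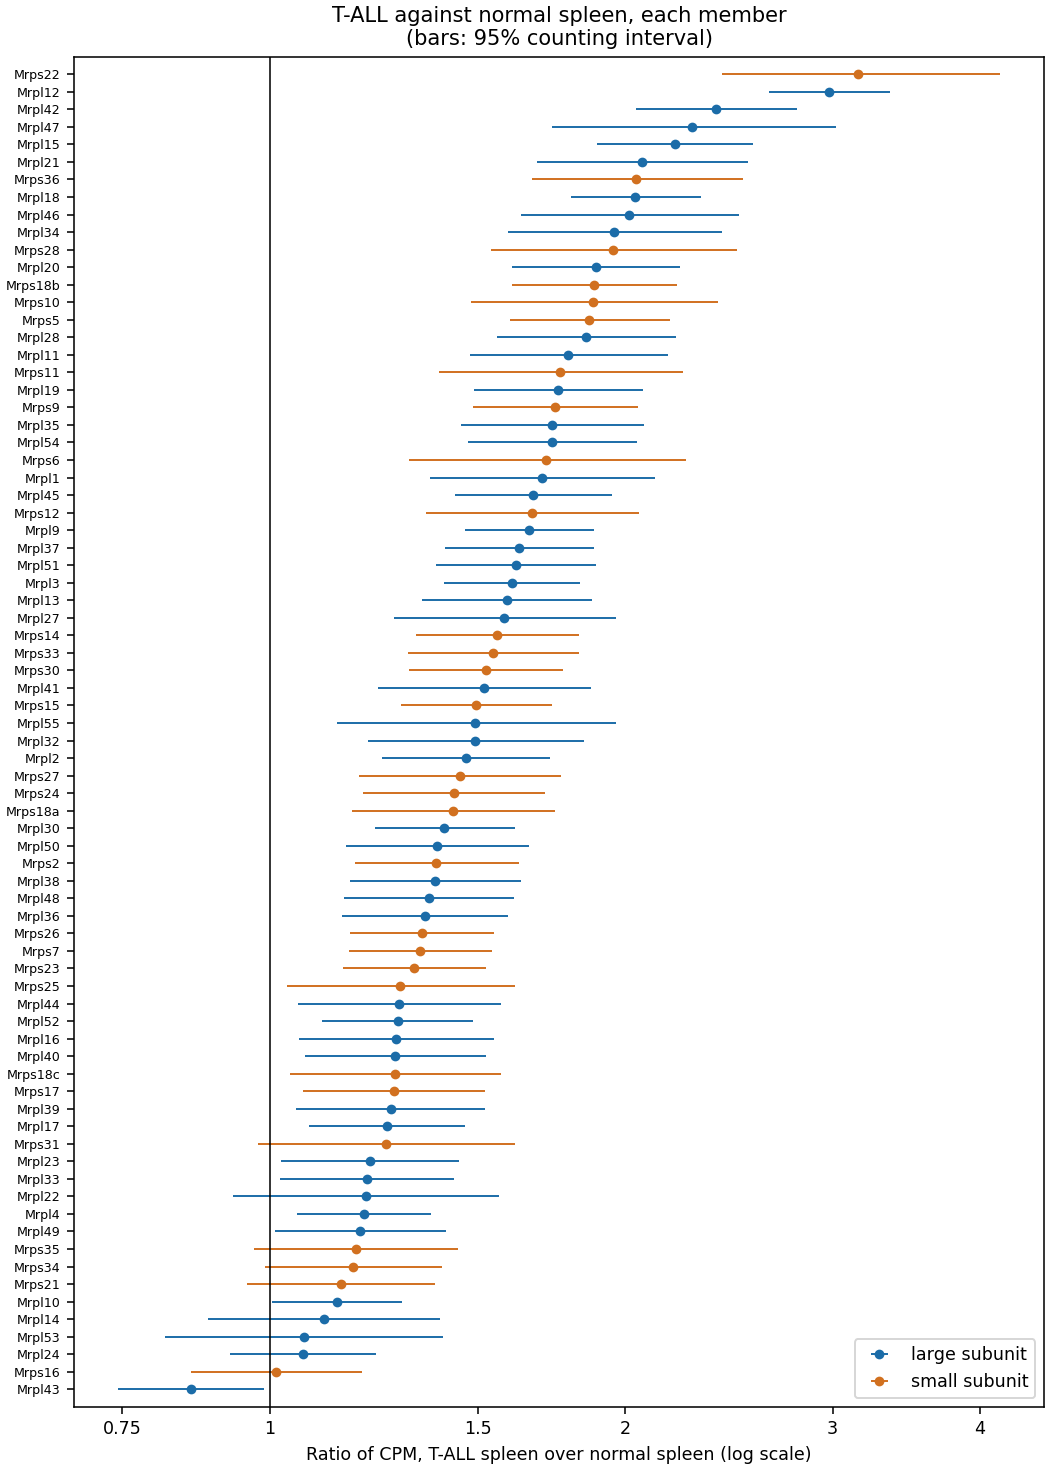
Ratio of CPM, T-ALL spleen over normal spleen, for each of the 76 members on a log axis, with 95% counting intervals; blue is the large and orange the small subunit. Mrps22 and Mrpl12 stand at the top near 3-fold, and Mrpl43 is the 1 member below 1.

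Mrpl12, the protein of the flexible stalk that draws translation factors to the large subunit, had 73.9 CPM in normal bone marrow, 62.9 in T-ALL bone marrow, 42.2 in normal spleen and 126 in T-ALL spleen. It was the most abundant member in T-ALL spleen by reads, at 2.98-fold its level in normal spleen (2.65 to 3.36). It took 3.35% of the large subunit reads in normal spleen and 6.48% in T-ALL spleen, with 4.37% and 4.27% in the bone marrow libraries. Mrpl11, at the base of the same stalk, had 23.8, 19.9, 18.7 and 33.5 CPM in normal bone marrow, T-ALL bone marrow, normal spleen and T-ALL spleen. Its spleen ratio was 1.79 (1.48 to 2.17). Both stalk genes were highest in T-ALL spleen, with an interval for Mrpl12 that lies above that of Mrpl11.

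Mrps22, a small subunit protein with no bacterial counterpart, had 19.1 CPM in normal bone marrow, 13.1 in T-ALL bone marrow, 8.17 in normal spleen and 25.8 in T-ALL spleen. The spleen ratio was 3.16 (2.42 to 4.16), from 73 and 238 reads, and its interval overlaps that of Mrpl12. Mrps36 was 16.1, 16.4, 15.8 and 32.3 CPM in the same order of libraries, flat in 3 libraries and 2.05-fold higher in T-ALL than in normal spleen (1.67 to 2.52). Its protein, first listed with the small subunit, is now known as a part of the 2-oxoglutarate dehydrogenase complex. Mrps28 had 21.3, 17.3, 11.9 and 23.2 CPM, and Mrps18b 31.1, 26.3, 26.1 and 49.0 CPM. They were 1.95-fold (1.54 to 2.49) and 1.88-fold (1.60 to 2.21) higher in T-ALL spleen.

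The other members past 2-fold on log2(CPM + 1) belong to the large subunit. Mrpl42, a mitochondria-specific protein, had 42.5, 31.3, 25.6 and 61.2 CPM in normal bone marrow, T-ALL bone marrow, normal spleen and T-ALL spleen, and its spleen ratio was 2.39 (2.04 to 2.80). Mrpl15, the counterpart of bacterial L15, had 48.7, 36.3, 27.7 and 61.2 CPM and a ratio of 2.20 (1.90 to 2.57). Mrpl47, the counterpart of L29 near the exit of the peptide tunnel, had 13.4, 9.44, 8.50 and 19.4 CPM and a ratio of 2.28 (1.73 to 3.02). Each of these 3 was lowest in normal spleen and highest in T-ALL spleen. Mrpl18 had 77.1, 62.8, 40.9 and 83.6 CPM, with a ratio of 2.04 (1.80 to 2.32). For Mrpl21 the values were 25.1, 20.8, 15.7 and 32.4 CPM and 2.07 (1.69 to 2.54). Both show the same order of libraries as the 3 before them, and all 5 ratios have overlapping intervals. Exons of Mrpl47 overlap Actl6a and Ndufb5, those of Mrpl18 overlap Tcp1 by 17 bp and those of Mrpl21 overlap Ighmbp2, all on the other strand. Overlaps also touch Mrpl12 (Gm16755, 200 bp), Mrps18b (Gm16279, 638 bp) and Mrpl24 (Rrnad1, 594 bp) on the other strand. Mrpl33 overlaps Gm43809 by 107 bp on the same strand.

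Some members had spleen ratios near or below 1. Mrpl43 had 41.9 CPM in normal bone marrow, 39.6 in T-ALL bone marrow, 47.1 in normal spleen and 40.4 in T-ALL spleen, with a spleen ratio of 0.857 (0.744 to 0.988). Mrps16, the counterpart of bacterial S16, was level at 30.1, 30.3, 31.3 and 31.7 CPM. Mrpl24 had 43.7, 44.0, 41.5 and 44.3 CPM. The spleen intervals of Mrps16 (0.857 to 1.20) and Mrpl24 (0.925 to 1.23) include 1 and exclude 1.52, the ratio of the family's sum. In all, 9 members had a spleen interval that included 1: Mrpl14, Mrpl22, Mrpl24, Mrpl53, Mrps16, Mrps21, Mrps31, Mrps34 and Mrps35.

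Members with a bacterial homologue had a spleen median log2 fold of 0.64 in the large subunit (30 genes) and 0.59 in the small subunit (16 genes). The mitochondria-specific members had 0.45 (17 genes) and 0.41 (10 genes). The ranges overlap, as Mrps22 and Mrpl42 are mitochondria-specific. The decoding-site protein Mrps12 had 23.1, 20.9, 16.6 and 27.6 CPM in normal bone marrow, T-ALL bone marrow, normal spleen and T-ALL spleen, and its spleen log2 fold was 0.70. The 3 proteins related to bacterial S18 had log2 folds of 0.49 (Mrps18a), 0.89 (Mrps18b) and 0.34 (Mrps18c). Mrps18a and Mrps30 carry small subunit names but sit in the large subunit, and Mrps30 had a log2 fold of 0.59. Mrpl41 had 0.57. Across the 76 members the spleen log2 fold showed Spearman's rho of -0.01 with mean CPM and 0.09 with listed length.

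In the bone marrow, the same genes were slightly lower in the T-ALL library. The log2 fold was below 0 for 65 of the 76 and above 0 for 11, where 54.1% of all 9716 genes tested were below and 45.9% above 0. The medians were -0.22 for the large and -0.24 for the small subunit, beside -0.04 for all genes. By size, 2 members (both large) were at least 1.5-fold lower and 0 at least 1.5-fold higher, where 7.09% of all genes were lower and 14.1% higher by that size, and 0 passed 2-fold in either direction, where 1.03% were lower and 8.01% higher. The counting interval lay below 1 for 31 members and above 1 for 3, of 75 tested (Mrps6 was under 10 CPM), against 33.5% and 30.6% of all genes. The 2 subunits' sums were 1.15-fold (1.12 to 1.17) and 1.18-fold (1.15 to 1.22) higher in normal than in T-ALL bone marrow. For 41 of the 75 members the interval included 1.

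Mrpl44, which has a ribonuclease III-like fold, had 43.6 CPM in normal bone marrow, 25.6 in T-ALL bone marrow, 20.02 in normal spleen and 25.8 in T-ALL spleen. It was 1.70-fold higher in normal than in T-ALL bone marrow (1.45 to 2.001). Mrpl51 had 61.4, 39.1, 29.2 and 47.2 CPM, 1.57-fold higher in normal bone marrow (1.38 to 1.79). These 2 were the members past 1.5-fold, and both had normal bone marrow as their highest library. Mrpl50 was close to that size, at 35.1 and 23.6 CPM in normal and T-ALL bone marrow, a ratio of 1.49 (1.25 to 1.77). In the small subunit Mrps22 led, 1.46-fold higher in normal bone marrow (1.15 to 1.84), followed by Mrps15 at 1.39 (1.21 to 1.60).

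The 3 members with an interval above 1 were Mrpl52, Mrpl33 and Mrpl4. Mrpl52 had 27.1 CPM in normal bone marrow, 36.8 in T-ALL bone marrow, 36.0 in normal spleen and 46.2 in T-ALL spleen, a bone marrow ratio of 1.36 (1.15 to 1.60). For Mrpl33 the levels were 46.1, 54.2, 28.0 and 33.8 CPM and the ratio 1.18 (1.03 to 1.34). Mrpl4, the counterpart of bacterial L4, had 40.2, 46.6, 46.9 and 56.3 CPM and 1.16 (1.01 to 1.33). Mrpl52 and Mrpl4 were lowest in normal bone marrow, whereas Mrpl33 was higher in both bone marrow libraries than in either spleen library.

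Set side by side, 64 members (38 large, 26 small) were lower in T-ALL than in normal bone marrow and higher in T-ALL than in normal spleen, where 32.5% of the 10312 genes with 10 CPM or more in any library were. Another 11 were higher in both organs, Mrpl43 was lower in both, and 0 were higher in bone marrow and lower in spleen, against 12.6%, 19.8% and 35.0% of those genes. The spleen log2 fold was above the bone marrow one in 74 members, by a median of 0.77, where 46.8% of those genes had it above; the exceptions were Mrpl43 and Mrpl52. The gap was widest for Mrps22, at 1.55 in spleen and -0.51 in bone marrow, and for Mrpl12, at 1.55 and -0.23. Mrpl51 was past 1.5-fold in opposite directions, with -0.64 in bone marrow and 0.67 in spleen. The size in one organ did not follow that in the other: Spearman's rho was -0.08 over the 76 members, -0.24 over the large and 0.20 over the small subunit. The 2 comparisons share no library, and the difference between organs was not tested.

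**Figure D3:**
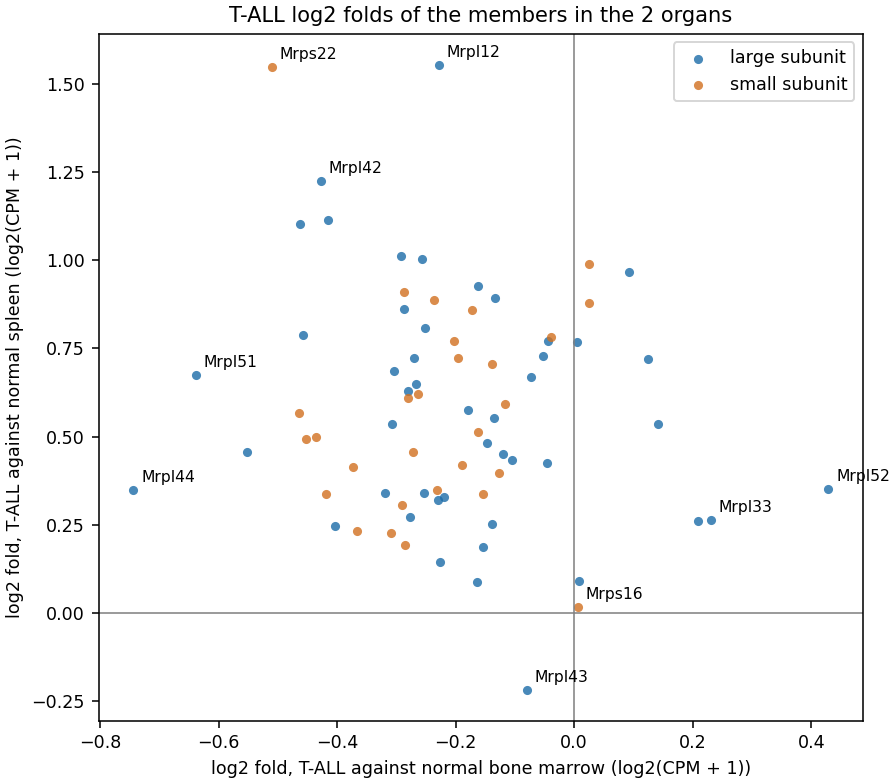
Each member's log2 fold, on log2(CPM + 1), of T-ALL against normal bone marrow (horizontal) and of T-ALL against normal spleen (vertical), with blue for the large and orange for the small subunit. The upper left panel area holds 64 of the 76 members, and the labelled members are named in the text.

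Between normal organs, the family was lower in spleen than in bone marrow. The log2 fold was below 0 for 69 of the 76 and above 0 for 7, where 51.8% and 48.2% of all 10072 genes tested were, with medians of -0.40 for the large and -0.42 for the small subunit. At least 1.5-fold lower were 20 of 75 tested members, a share near the 24.6% of all genes. By that size 0 were higher, where 24.5% of all genes were. The counting interval lay below 1 for 53 members and above 1 for 2, against 41.9% and 38.6% of all genes. Past 2-fold were 4 lower members and 0 higher, where 14.0% of all genes were lower and 16.1% higher. The 4 were Mrpl19, Mrpl44, Mrpl51 and Mrps22. Mrpl19 had 54.6 CPM in normal bone marrow and 25.6 in normal spleen, 2.13-fold higher in bone marrow (1.82 to 2.50), but 1962 bp of its exons overlap Gcfc2. This comparison uses the same normal libraries as the 2 above.

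Between leukemic organs the order was turned, with higher levels in spleen. There 74 of the 76 log2 folds were above 0 and 2 below, where 51.0% and 49.0% of all 9852 genes tested were, and the medians were 0.32 and 0.39 for the large and small subunit. At least 1.5-fold higher in T-ALL spleen were 16 members, where 14.1% of all genes were, and 1 was lower by that size, where 19.1% of all genes were. The 1 lower member was Mrpl33, with a log2 fold of -0.67. The counting interval lay above 1 for 51 members and below 1 for 1, against 36.4% and 35.7% of all genes. Past 2-fold on log2(CPM + 1) were 0 members, where 5.44% of all genes were higher and 11.0% lower. As ratios of CPM, without the added 1, some members passed or neared 2-fold. Mrpl47 was at 2.05 (1.58 to 2.68) and Mrpl12 at 1.999 (1.81 to 2.21).

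Other genes of mitochondrial translation were set beside the members by lists of names. Of 7 mitoribosomal proteins whose symbols fall outside the rule, all 7 were higher in T-ALL spleen and lower in T-ALL bone marrow, with medians of 0.79 and -0.19, and 5 were at least 1.5-fold higher in spleen. Ptcd3, a pentatricopeptide repeat protein of the small subunit, had 69.4, 50.7, 40.6 and 79.4 CPM in normal bone marrow, T-ALL bone marrow, normal spleen and T-ALL spleen. Dap3, a GTP-binding small subunit protein, had 75.6, 71.9, 60.6 and 109 CPM. Both were highest in T-ALL spleen and lowest in normal spleen, the order most members showed.

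Of 15 mitochondrial translation factors, 14 were tested in spleen. There 5 were at least 1.5-fold higher in T-ALL spleen and 0 lower by that size. The spleen median was 0.47 and the bone marrow median -0.19. In spleen 10 of the 15 log2 folds were above 0 and 5 below. Counting intervals lay above 1 for 8 and below 1 for 2. The elongation factor gene Tufm had 104, 85.6, 64.0 and 127 CPM in the same order of libraries. The log2 folds in spleen were 0.99 for the recycling factor Mrrf, 0.98 for Tufm, 0.94 for Lrpprc, which stabilises mitochondrial mRNAs, and 0.93 for the elongation factors Tsfm and Gfm1. The initiation factor Mtif3 stood at -0.50. Genes of mitoribosome assembly and rRNA modification (27) had a spleen median of -0.02, with 2 of 20 tested at least 1.5-fold higher (Wbscr16 and Noa1) and 0 lower. The genes that build the ribosome thus stood near all genes in spleen, where the genes of its proteins stood above them. Genes of mitochondrial DNA expression (11) had a spleen median of 0.43, led by Tfam, which packages mitochondrial DNA, at 52.2, 46.8, 57.3 and 101 CPM.

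Oxidative phosphorylation subunits, the products that this ribosome's output joins, had a spleen median of 0.60, with 41 of 74 tested at least 1.5-fold higher and 1 lower, and a bone marrow median of -0.12. Cytosolic ribosomal proteins, counted by symbol and including paralogues, had 0.31 and -0.10, with 10 of 81 at least 1.5-fold higher in spleen and 1 lower. Between normal organs the medians were -0.41 for the members, -0.41 for oxidative phosphorylation and 0.01 for the cytosolic ribosome. Of 11 regulators of mitochondrial biogenesis the spleen median was 0.29. Myc, a growth regulator, had 257, 149, 105 and 155 CPM in normal bone marrow, T-ALL bone marrow, normal spleen and T-ALL spleen, while Nrf1 had a spleen log2 fold of 0.57 and Esrra, the estrogen-related receptor alpha, of -0.66.

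**Figure D4:**
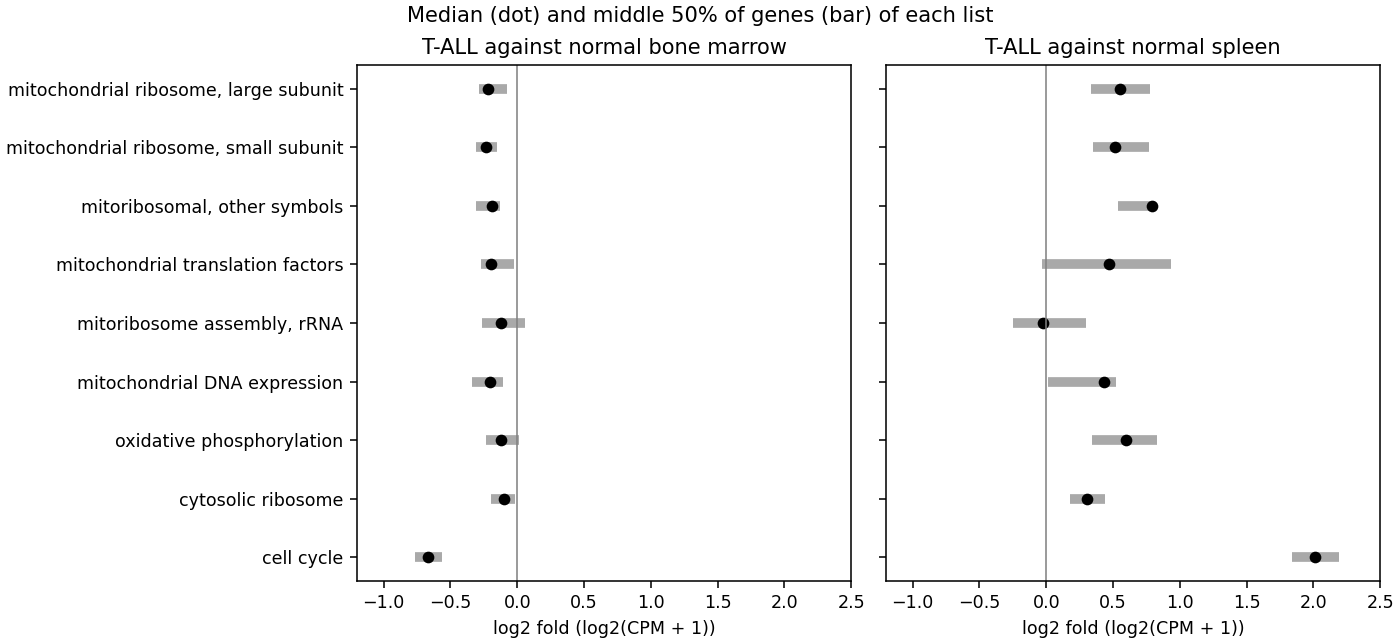
Median (dot) and middle 50% (bar) of the log2 folds, on log2(CPM + 1), in each of 9 lists of genes, for T-ALL against normal bone marrow (left) and spleen (right). The mitochondrial ribosome lists lie left of 0 in bone marrow and right of 0 in spleen, and of the lists drawn the cell cycle list is farthest from 0 in both; cell type markers are not drawn.

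Markers of other cells and states also differed between the libraries, not all in the members' direction. Genes of the cell cycle passed 2-fold upward in T-ALL spleen in 22 of 22 cases (median log2 fold 2.01), and 14 of the 22 were at least 1.5-fold lower in T-ALL bone marrow (median -0.67). Their summed level was 7323 CPM in normal bone marrow, 4627 in T-ALL bone marrow, 1446 in normal spleen and 5667 in T-ALL spleen. T cell and T-ALL markers (16) summed to 264, 963, 1505 and 3714 CPM in that order, with 10 of 14 tested at least 1.5-fold higher in T-ALL spleen and 1 lower. Of the 15 macrophage markers, 12 were at least 1.5-fold lower in T-ALL spleen and 14 at least 1.5-fold higher in T-ALL bone marrow. Dendritic cell markers (8 of 8) were at least 2-fold lower in T-ALL spleen, with sums of 175, 241, 922 and 209 CPM, and B cell markers (6 of 6 tested, of 8) at least 1.5-fold lower, with sums of 404, 372, 2176 and 1044 CPM. Of the 12 neutrophil precursor markers, 9 were at least 1.5-fold lower in T-ALL bone marrow, and in spleen 5 of 7 tested were lower and 1 higher by that size. Erythroid markers (8) summed to 275, 370, 260 and 433 CPM, with 6 of 8 at least 1.5-fold higher in T-ALL bone marrow and 1 of 6 tested higher and 1 lower in spleen. No cell cycle, T cell, macrophage, dendritic or erythroid marker was at 0 reads in any library, and 1 B cell marker, Igll1, was at 0 in normal spleen. Normal spleen, the lowest library for most members, was also the lowest for the cell cycle genes, but normal bone marrow was the highest for those. The part of these cells and states in the members' differences was not tested.

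Promoter windows, 250 bases before to 50 after the start, were found for 67 of the 76 members, 73 windows in all. The ETS core CCGGAAG, on either strand (CTTCCGG), occurred in 24 of the 73 windows, 32.9%, against 8.86% of all 32851 windows and 18.7% of those of genes with 10 CPM or more in a library. It was in 28.3% of large and 40.7% of small subunit windows. AAGATGG, a YY1 core, was in 17.8% against 6.34% of all and 7.38% of those with 10 CPM or more. GCGCATG, part of the NRF1 element, was in 11.0% against 3.91% and 7.07%, and the E-box CACGTG, which MYC can bind, in 9.59% against 7.15% and 10.3%. The 7 E-box windows belong to 5 genes, because overlapping windows of Mrpl2 hold the same copy. No letters of 1 of these motifs hold another whole. These are matches of letters, not sites. Members with the ETS core had a spleen median log2 fold of 0.46 (24 genes) and those without it 0.57 (43 genes). Of the stretches shown above, that of Mrps22 holds the core and that of Mrpl12 does not, and both genes had a log2 fold of 1.55.

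Divergent neighbours were looked for, and 25 members had a start on the opposite strand within 1000 bases. Of the 21 partners with 10 CPM or more in a spleen library, 12 were higher in T-ALL spleen, 9 of them at least 1.5-fold, and 2 were at least 1.5-fold lower, beside 46.0%, 20.1% and 23.9% of all genes tested in spleen. The partners' median was 0.37. These counts and this median include Mrps11 and Mrpl46, members that are each other's partner and both at least 1.5-fold higher. Mrps11 and Mrpl46, both members, start 42 bases apart, across the stretch shown above, and had spleen log2 folds of 0.77 and 0.96 and bone marrow log2 folds of -0.20 and 0.09. Mrpl43 and Peo1 start 116 bases apart and went opposite ways in spleen, with -0.22 and 0.48. Peo1 had 31.8, 24.5, 15.8 and 22.4 CPM in normal bone marrow, T-ALL bone marrow, normal spleen and T-ALL spleen. The exons of this pair overlap by 385 bp, so their separate counts are uncertain. Mrpl51 lies 614 bases from the start of the condensin gene Ncapd2, whose spleen log2 fold was 2.13 beside 0.67 for Mrpl51. Mrpl18 and Tcp1, a subunit of the cytosolic chaperonin, had 1.01 and 1.39.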

How the data were processed

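RNA from sorted macrophages was sequenced in 4 libraries, 1 per group, grouped by their titles. Per the file headers, each deposited table gives counts of uniquely mapped reads per gene, gene length and RPKM; a gene with no line was set to 0. RPKM as deposited by the authors scales reads by length and total, and recomputing it gave the same values. Aligner, counting rule, strand setting, build and annotation: not given in the sources used here. Unique counts leave out reads with several placements, so genes with near-identical pseudogene copies are uncertain.

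CPM was computed on totals scaled by TMM (edgeR 4.0.16, R 4.3.3; factors 1.00, 0.991, 0.996 and 1.01 for normal bone marrow, T-ALL bone marrow, normal spleen and T-ALL spleen). 1 read was worth 0.101 to 0.112 CPM, and members had 73 to 1161 reads per library. Since a group is 1 library, the analysis has no count model and no p-value. Log2 folds are on log2(CPM + 1), which understates differences of low genes; a gene was called at 1.5-fold or 2-fold on that scale if its higher level was 10 CPM or more. Ratios carry no pseudocount and have 95% intervals from the exact binomial distribution; shares have Wilson intervals. Both cover counting error only, and PCR copies are not separate molecules. The other steps ran in Python 3.11.15 (matplotlib 3.10.9, scipy 1.17.1, numpy 2.4.6, pandas 2.3.3).

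Named members were those past 2-fold in any comparison, the 5 highest and 5 lowest per subunit and T-ALL comparison, the 3 highest and 3 lowest by RPKM, the 5 with the largest and 5 with the smallest difference between organs, and 9 chosen for their roles; up to 4 genes were taken from each other list. From these, the text gives values for a subset, and some genes were named after their values were seen: Mrpl22, the divergent partners, and members in complete counts. Of the mitochondrial translation factors, more than 4 are named. The members and lists were chosen with earlier results of these data known. Alternatives were other scaling factors, pseudocounts, minimum levels, RPKM and subunits by structure.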

Additional observations from a re-analysis of the deposited data

Results flagged for a closer look

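The T-ALL difference pointed opposite ways in the organs for both subunits and for Mrpl51. The median log2 fold of the large subunit was -0.22 in bone marrow and 0.55 in spleen, and that of the small subunit -0.24 and 0.51. Mrpl51, the 1 member past 1.5-fold in opposite directions, had -0.64 in bone marrow and 0.67 in spleen. Each organ has 1 library per group, so the difference was not tested.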

How the results depend on the processing

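No value reversed under any alternative: 176 summary values stayed within their limits, 32 moved, and all 440 values of named members stayed the same. With a minimum of 50 CPM, which leaves fewer genes, large subunit members at least 1.5-fold lower in T-ALL bone marrow were 1 instead of 2. In spleen that minimum left 7 large instead of 22 and 1 small instead of 13 at 1.5-fold, and 0 small instead of 1 at 2-fold. Between normal organs it gave a large subunit median of -0.85 instead of -0.40, with 4 large instead of 14 and 0 small instead of 6 at least 1.5-fold lower and 0 small instead of 1 at 2-fold. Between leukemic organs it left 4 large instead of 11 and 0 small instead of 5 at 1.5-fold. A pseudocount of 5 left 3 large instead of 6 past 2-fold in spleen, 0 large instead of 3 and 0 small instead of 1 past 2-fold between normal organs, and 6 large instead of 11 past 1.5-fold between leukemic organs. Small subunit members past 2-fold in spleen were 2 with total counts, median-of-ratios factors, a pseudocount of 0.1 or RPKM. Large subunit members past 2-fold between leukemic organs, 0 in the report, were 1 with total counts, a pseudocount of 0.1 or RPKM and 2 with median-of-ratios factors, and small ones were 1 with a pseudocount of 0.1. With subunits by structure the shares of reads were 0.176%, 0.151%, 0.130% and 0.203% for the large and 0.0820%, 0.0683%, 0.0605% and 0.0899% for the small subunit in normal bone marrow, T-ALL bone marrow, normal spleen and T-ALL spleen. With median-of-ratios factors the large subunit share in T-ALL spleen was 0.199%. TMM-scaled totals as the base of the shares were added after seeing the data and moved none. Apart from the settings whose construction changes which genes are tested or how they are grouped, the cause was not tested.

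No paired analysis was possible because each group has 1 library. Leaving a library out ends each comparison that uses it, and normal spleen serves in 2 of them. The median counting interval of a member spanned 0.49 on the log2 scale in both T-ALL comparisons, from its lower to its upper bound, which limits what can be seen of small differences at this depth. The spread between animals is unknown.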
